A study of Solanum lycopersicum with 6 samples.

Results

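The tomato (Solanum lycopersicum) root expressed 278 genes described as F-box proteins, out of 660 genes with that word in their description and 35768 genes listed in all. The genes were selected on their levels in these libraries: 3 or more of the 6 libraries had to reach 1 TPM, and the description had to contain F-box in upper or lower case. TPM is a transcript level per unit of transcript length, scaled to about the same total in each library. Roots came from 20-day-old plants of 2 genotypes, the slszp1 mutant and the wild type, with 3 biological replicates each by the labels. All plants of both genotypes had been treated with 60 µM aluminium (Al) at pH 4.7, so every difference here is between genotypes under Al, and roots without Al were not analysed here. SZP1 is known as a zinc finger protein that interacts with STOP1, the zinc finger factor that root tolerance of Al and of low pH depends on. The labels give neither the slszp1 allele nor the number of mutant lines, and no gene description names SZP1, so the genotype could not be checked on the mutated gene.

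An F-box protein is the part of an SCF ubiquitin ligase that picks the target. The F-box itself binds the SKP1 subunit, SKP1 binds the cullin scaffold, and the rest of the F-box protein, often Kelch repeats or leucine-rich repeats (LRR), holds the protein to be tagged for the proteasome. Plants carry very large F-box families, and several plant hormone receptors belong to them. In Arabidopsis the F-box protein RAE1 binds STOP1 and promotes its degradation, which is why the repeat types are given apart below. The word RAE1 stands in 0 of the gene descriptions, and no gene below is taken as its counterpart.

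By the words of their descriptions the 278 genes fell into 25 of the Kelch type, 34 of the LRR type (20 named for LRR and 14 for the related RNI fold), 11 Tubby-like, 12 of the PP2 type, 6 named SKIP, 2 cyclin-like, 13 with an F-box associated or interaction domain, and 175 others. Of the others 151 had no further word than F-box protein or F-box family protein. A gene whose description names no repeat was not placed in a repeat type, whatever repeats its protein holds. The 3 genes described as EIN3-binding are among the others for this reason, so Kelch and LRR below mean described repeats only. The expressed share differed between types. It was lowest in the associated domain type, with 13 of 61 described genes, and in the LRR type, with 34 of 121. In the Kelch type 25 of 34 were expressed and in the PP2 type 12 of 16. Among the 382 described genes below the expression rule, 264 were listed at 0 in every library. The members just inside the rule had third-highest values of 1.01, 1.01 and 1.02 TPM, and the genes just outside had 0.96, 0.91 and 0.89 TPM. In 5 members all 3 mutant libraries but at most 1 wild type library reached 1 TPM, and in 9 members the reverse held. Such members entered the set through the genotype with the higher levels.

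Most of the expressed F-box genes had low to middle levels. Their mean level over the 6 libraries had a median of 9.02 TPM with quartiles of 3.27 and 21.92 TPM, against a median of 12.98 TPM over the 17702 genes expressed by the same rule. Only 13 members averaged 100 TPM or more. A single gene, Solyc05g053620.3, described as F-box protein PP2, averaged 2145 TPM and made up 14.6 to 32.1% of the summed level of all members in a library. Without it the members summed to 6040 to 6918 TPM per library, and the ranges of the genotypes overlapped. Per library 17050 to 17728 genes reached 1 TPM. The columns summed to 940694 to 974316, and sequencing depth is unknown.

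The slszp1 mutant and the wild type differed in 41 of the 278 F-box genes, of which 26 rose and 15 fell in the mutant. A gene is said to rise or fall where limma, fitted over all 17702 expressed genes on log2(TPM + 1), gave a Benjamini-Hochberg adjusted p under 0.05. The members' share of 14.7% stands beside 19.2% over all tested genes. In single directions, 9.35% of the members rose against 8.71% of all genes, and 5.4% fell against 10.5%. A change below is the mutant mean of log2(TPM + 1) less that of the wild type, given with its standard error (SE) or 95% confidence interval. Because of the added 1, changes of genes near 1 TPM come out too small. The median change was 0.01 over the members and 0.00 over all genes.

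Of the 278 changes 254 (91.4%) were smaller than 1 on the log2 scale, beside 86.5% over all tested genes. A change of at least 1 was reached by 16 of the genes that rose and 3 of those that fell, 5.76% and 1.08% of the members beside 5.15% and 6.25% of all tested genes. In 53 members (19.1%) every mutant library lay above every wild type library, and in 33 (11.9%) every mutant library lay below, beside 18.2% and 20.2% of all tested genes. All 41 genes that passed the test were among these. At an unadjusted p under 0.05 there were 72 members, and 32.5% of all genes. The counts depended on single libraries: 17 rose and 6 fell without mutant replicate 1, 17 rose and 8 fell without mutant replicate 2, and 7 fell without wild type replicate 1. Fewer of all tested genes passed in these 3 fits as well, so the lower counts were not particular to the F-box genes. Without mutant replicates 1 and 2, 8.27% and 8.99% of the members passed, beside 13.2% and 13.1% of all tested genes. Without wild type replicate 2 the shares were 15.1% and 21.5%. For the 237 members that did not pass, a difference is not excluded, because the median half-width of the members' 95% intervals was 0.47. In whole roots, fewer cells of a type and less RNA per cell cannot be told apart.

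**Figure D1:**
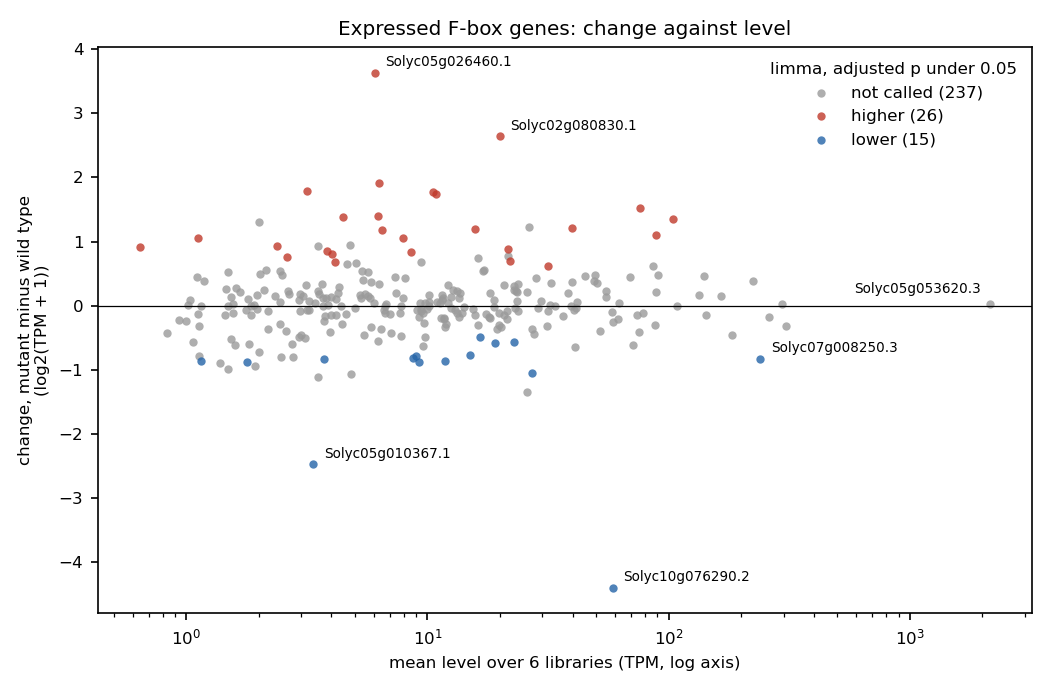
Each point is 1 of the 278 expressed F-box genes, with its mean level over the 6 libraries in TPM on a log axis and its change, mutant minus wild type, in log2(TPM + 1). Red points (26) rose and blue points (15) fell by limma at an adjusted p under 0.05, and the lowest point is Solyc10g076290.2 at -4.40.

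The largest fall of any F-box gene was that of an LRR gene. Solyc10g076290.2, described as an F-box/LRR protein, held 4.95, 3.08 and 5.08 TPM in the mutant (replicates 1, 2 and 3, as in all lists of levels here) and 119.28, 79.62 and 141.45 TPM in the wild type. It was thus among the 3 most abundant genes described as LRR or RNI in the wild type libraries. In every mutant library it stood at a few TPM, a 26.0-fold lower mean. The log2 difference was -4.40 (SE 0.25). It passed with a limma adjusted p of 3.17e-05, and in every alternative run (6.32e-06 to 0.000997). The description gives no name beyond the type, and its target is not known from the files.

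The next gene in the table after Solyc10g076290.2, Solyc10g076300.2, described as a CASP-like protein, fell as well, at 3.82, 2.2 and 4.7 TPM in slszp1 roots and 7.01, 8.86 and 7.88 TPM in the wild type (limma adjusted p 0.0237). The gene before it, Solyc10g076280.2, described as solute carrier family 40 member 1, did not pass, at 1.27, 1.5 and 1.67 TPM against 2.63, 1.72 and 3.58 TPM. In neither neighbour were the mutant levels as far below the wild type as in the F-box/LRR gene.

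Of the 34 genes with LRR, leucine-rich or RNI in their description, 4 rose and only Solyc10g076290.2 fell, and their median change was 0.07. The shares were 11.8% and 2.94%, beside 8.71% and 10.5% of all tested genes. Solyc05g026460.1, an RNI-like gene whose model is marked low quality, held 7.46, 10.79 and 18.11 TPM in slszp1 roots and was listed at 0 in all 3 wild type libraries. No fold is given against a group listed at 0, and its limma adjusted p was 0.000145. It had entered the set through the mutant libraries alone. Solyc06g054140.3, whose description joins an FBD domain, an F-box and leucine-rich repeats, was matched in part and held 10.04, 8.7 and 9.24 TPM against 3.95, 2.54 and 4.44 TPM (change 1.17, SE 0.21, limma adjusted p 0.00624). The other 2 LRR genes that rose were less stable. Solyc01g099970.3 held 5.68, 4.66 and 5.59 TPM against 3.24, 2.91 and 2.64 TPM (limma adjusted p 0.0369), and did not pass without any single library (0.0571 to 0.125; 0.0197 to 0.125 over all alternatives). Solyc08g013756.1, matched in part, held 8.6, 15.11 and 9.37 TPM against 6.83, 2.68 and 5.14 TPM, with a limma adjusted p of 0.04995. It passed without wild type replicate 1 (0.0365) and did not without any other library, where the adjusted p reached 0.151 at most. The call was lost in 11 of the 13 alternatives that tested it (limma adjusted p 0.0365 to 0.1575 over all 13). Among these were quantile normalization, median centring and the replicate number as a block. The number of LRR genes that rose was 2 or 3 without single libraries, and 2 fell without wild type replicate 2 or 3.

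The most abundant of the genes described as LRR or RNI did not pass. Solyc03g117420.3, described as an F-box/LRR-repeat protein, held 197.44, 201.5 and 375.79 TPM in slszp1 roots and 169.55, 177.95 and 220.28 TPM in the wild type, with an interval of -0.21 to 0.98. Mutant replicate 3 was the high value and the genotypes overlapped. Solyc02g071970.1, a low-quality model with leucine-rich repeats, ranged from 120.02 to 203.96 TPM in slszp1 roots and from 122.13 to 351.77 TPM in the wild type. Solyc09g056200.3, the third by level and matched in part, held 69, 67.87 and 55.45 TPM against 102.24, 63.21 and 94.6 TPM. It did not pass (limma adjusted p 0.208) except without wild type replicate 2, the low wild type value, where the change was -0.62 (limma adjusted p 0.0270). Adjacent LRR models on chromosome 8 lay in opposite directions, neither passing. Solyc08g061635.1, matched in part, held 1.59, 1.65 and 2.59 TPM against 0.61, 1.25 and 1.27 TPM. Solyc08g061650.3 held 0.77, 0.31 and 0.58 TPM against 2.12, 1.91 and 1.09 TPM, and met the expression rule only through the wild type. Reads can be divided between such neighbouring models, so these levels are uncertain.

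**Figure D2:**
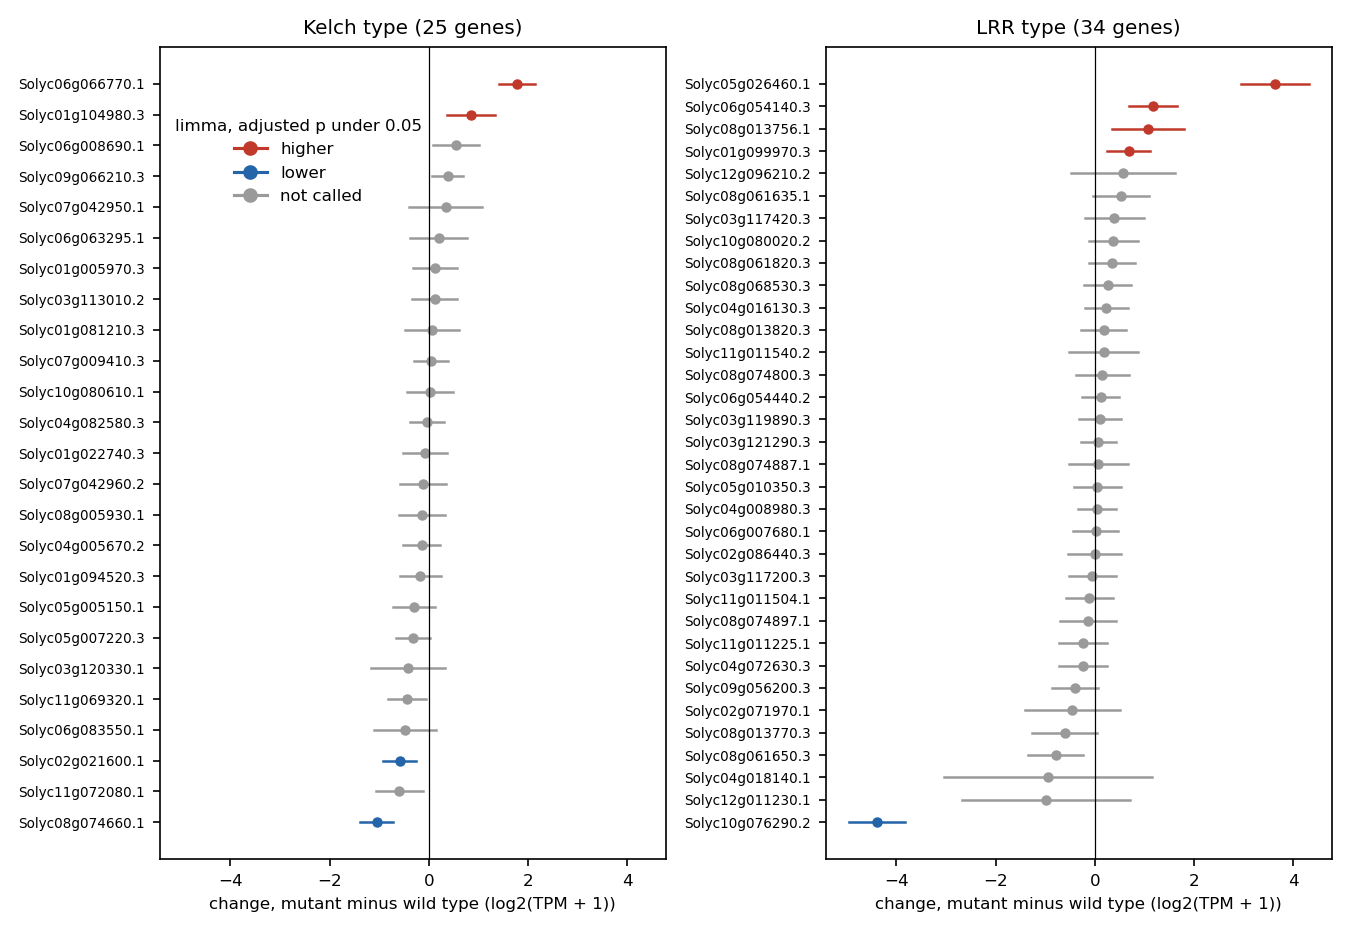
Each row is a gene of the Kelch type (left, 25 genes) or the LRR type (right, 34 genes), with its change, mutant minus wild type, in log2(TPM + 1) as a point and the 95% confidence interval as a line. Red genes rose and blue genes fell by limma; in the LRR type Solyc10g076290.2 lies apart at -4.40, and in the Kelch type the changes run from -1.06 to 1.77.

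Kelch genes, whose repeats fold into a propeller that binds the target, rose in 2 and fell in 2 of 25 cases. This share of 16% stands beside 19.2% of all tested genes, and their median change was -0.09. None of the 25 models was marked low quality or matched in part. Solyc06g066770.1 rose from 3.77, 4.3 and 4.58 TPM in the wild type to 17.07, 16.64 and 16.69 TPM in the mutant. The replicates of each genotype lay close together and the means differed 3.98-fold (change 1.77, SE 0.16, limma adjusted p 0.000238). Solyc08g074660.1, described as SKIP25 after the SKP1-interacting proteins of Arabidopsis, fell to 17.77, 18.1 and 16.16 TPM from 37.01, 33.93 and 40.72 TPM. The mean was 2.15-fold lower (change -1.06, SE 0.14, limma adjusted p 0.00157). These 2 genes passed without any single library.

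The remaining Kelch genes that passed had smaller changes. Solyc01g104980.3 held 10.07, 9.6 and 14.34 TPM against 4.8, 6.12 and 6.55 TPM (change 0.84, limma adjusted p 0.0243), and did not pass without mutant replicate 1, mutant replicate 3 or wild type replicate 1 (at most 0.0899; 0.0119 to 0.0899 over all alternatives). Solyc02g021600.1 held 14.2, 16.05 and 15.05 TPM against 23.6, 21.42 and 24.62 TPM (change -0.59, limma adjusted p 0.0232), and did not pass without mutant replicate 1 or 2 or wild type replicate 1 or 3 (at most 0.0899; 0.0172 to 0.0899 over all alternatives). The other 2 genes described as SKIP25 did not pass, at intervals of -0.60 to 0.33 for Solyc08g005930.1 and -0.49 to 0.60 for Solyc01g081210.3.

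The most abundant Kelch genes showed no difference beyond their spread. Solyc10g080610.1 held 261.99, 255.83 and 379.68 TPM in slszp1 roots and 243.91, 310.42 and 323.18 TPM in the wild type. Its change was 0.02 with an interval of -0.45 to 0.48. Solyc04g005670.2 held 139.29, 151.35 and 116.92 TPM against 136.03, 170.97 and 144.68 TPM, with an interval of -0.52 to 0.22. Solyc05g005150.1 held 73.79, 101.98 and 63.99 TPM against 96.03, 90.92 and 103.05 TPM, with an interval of -0.72 to 0.13. In all 3 the genotypes overlapped, and changes of 1 lie outside each of these intervals.

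PP2-type genes, which pair an F-box with a lectin domain first described in phloem protein 2, had the highest share of genes that rose among the 8 types: 4 of 12 rose and 0 fell (33.3%, beside 8.71% of all tested genes that rose). No test of the type against the rest was made. All 4 were full models, and the median change over the 12 genes was 0.34. Of 5 genes described as PP2-A13, 3 rose (60.0% of a small group, beside 8.71% of all tested genes that rose). Solyc10g017960.2 held 97.51, 120.72 and 124.21 TPM in slszp1 roots and 38.43, 42.13 and 35.96 TPM in the wild type (change 1.53, SE 0.15, limma adjusted p 0.00038). Solyc12g056410.2 held 157.76, 170.41 and 124.26 TPM against 50.92, 70.34 and 53.97 TPM (change 1.36, SE 0.18, limma adjusted p 0.00163). Solyc10g083730.2 held 46.16, 58.11 and 63.94 TPM against 22.53, 21.9 and 26.18 TPM (change 1.21, SE 0.16, limma adjusted p 0.00167). In these 3 genes the mutant means were 2.94-fold, 2.58-fold and 2.38-fold higher, the genotypes did not overlap, and each passed without any single library.

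The last 2 PP2-A13 genes did not pass. Solyc09g008820.3 held 90.04, 98.81 and 127.28 TPM against 56.72, 96.11 and 75.76 TPM, with wild type replicate 2 inside the mutant range and an interval of -0.02 to 0.98. Solyc10g085490.2 held 19.12, 17.79 and 21.84 TPM against 14.33, 18.24 and 18.3 TPM, with an interval of -0.18 to 0.58. The only PP2-B1 gene, Solyc08g080360.3, rose to 40.58, 37.04 and 37.47 TPM from 26.45, 26.29 and 21.52 TPM (change 0.62, SE 0.14, limma adjusted p 0.0192). It did not pass without mutant replicate 1 or 2 or wild type replicate 3 (adjusted p of up to 0.0781). The number of PP2-type genes that rose was 3 to 5 without single libraries, and 0 fell in each of those fits.

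None of the 6 genes described as F-box protein PP2 with no further letter passed, although the most abundant F-box genes of the root are among them. Solyc05g053620.3 held 2017.48, 2409.55 and 1801.53 TPM in slszp1 roots and 2850.6, 1050.79 and 2739.36 TPM in the wild type. Wild type replicate 2 was the low value, the change was 0.03 with an interval of -0.85 to 0.91, and without that library it was -0.44 (limma adjusted p 0.145, with 0.145 to 1 over all alternatives). Solyc11g006740.2, second by level, ranged from 170.49 to 287.97 TPM in slszp1 roots and from 126.92 to 678.2 TPM in the wild type. Its neighbour in the table, Solyc11g006735.1, matched in part, held 31.59, 37.49 and 37.48 TPM against 31.94, 7.19 and 13.14 TPM. The wild type replicates of this group spread widely, so the intervals allow changes of more than 1 in both of the latter genes.

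**Figure D3:**
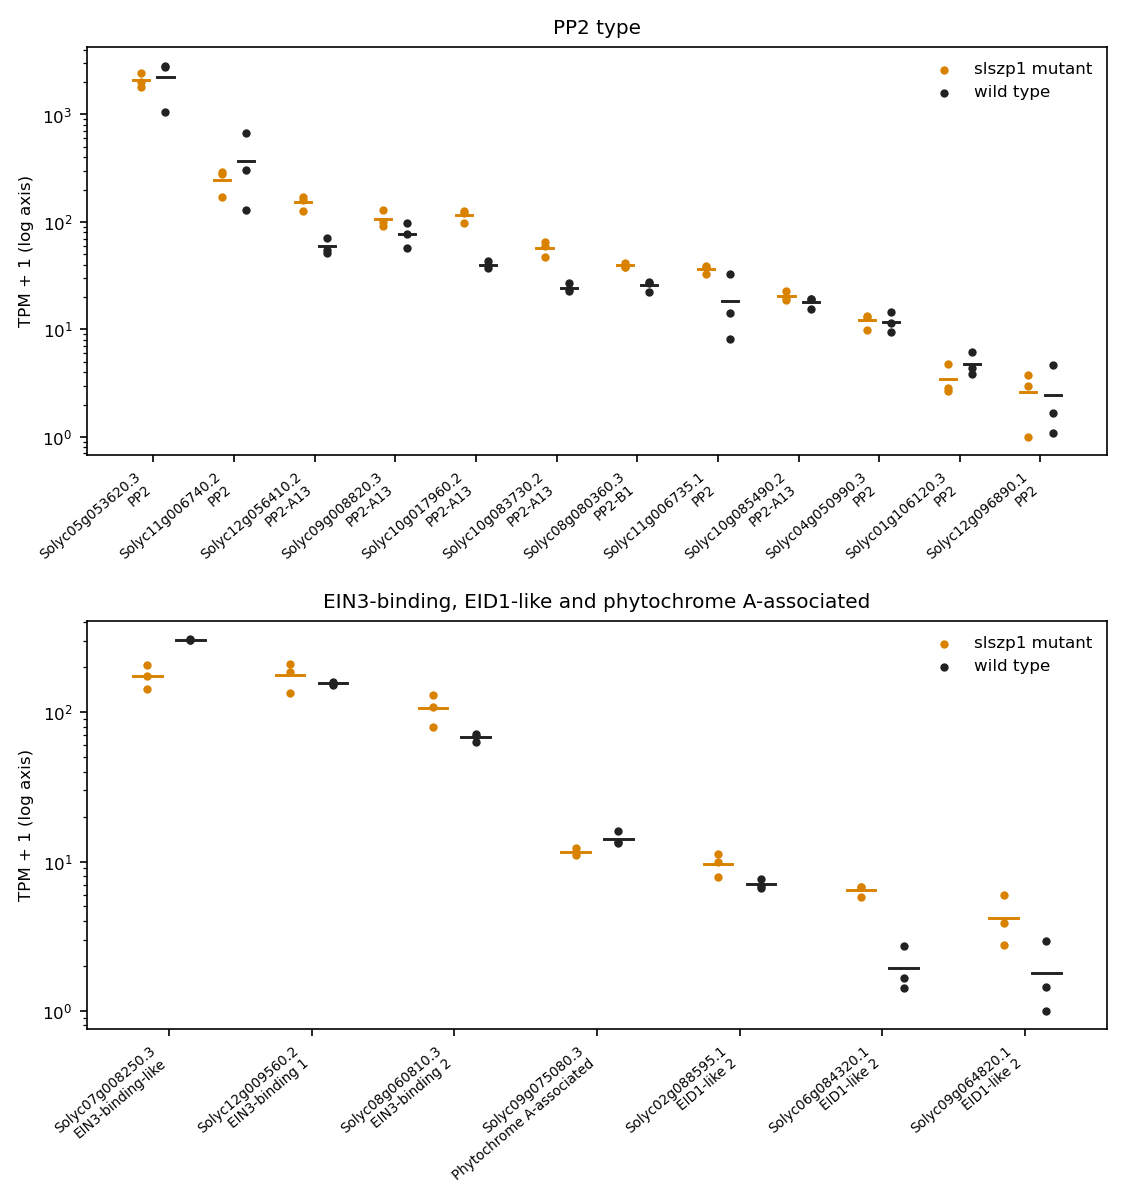
Points are the level in each library (TPM + 1, log axis) and bars the mean of 3 libraries, for the slszp1 mutant (orange) and the wild type (black). The upper panel holds the 12 PP2-type genes, where the mutant points of Solyc10g017960.2, Solyc12g056410.2 and Solyc10g083730.2 lie above all wild type points, and the lower panel the 7 genes described as EIN3-binding, EID1-like or phytochrome A-associated.

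EIN3-binding F-box proteins (EBF) bring the ethylene response factor EIN3 and its relatives to the proteasome, and they are themselves ethylene targets in Arabidopsis. The 3 EBF genes of the root, counted in the type of others by their descriptions, lay in different directions. Solyc07g008250.3, described as EIN3-binding F-box-like, fell to 142.75, 206.56 and 173.61 TPM in the mutant from 306.42, 306.86 and 305.54 TPM in the wild type. The wild type libraries lay within 2 TPM of each other, and every mutant library lay well below them (1.76-fold lower mean, change -0.83, SE 0.17, limma adjusted p 0.0110). It passed under every alternative run, up to an adjusted p of 0.0483. Solyc08g060810.3, described as EIN3-binding F-box protein 2, held 78.4, 107 and 130.22 TPM against 68.72, 62.02 and 70.56 TPM. All its mutant libraries were above the wild type, but it missed the threshold (change 0.61, interval 0.17 to 1.06, limma adjusted p 0.0604). Solyc12g009560.2, described as EIN3-binding F-box protein 1, held 134.76, 184.99 and 208.47 TPM against 158.96, 152.21 and 154.87 TPM, an overlap, with an interval of -0.26 to 0.57. Across the 3 genes, the mutant replicates spread more than those of the wild type.

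Genes described as EID1-like, after an Arabidopsis F-box regulator of phytochrome A signalling, numbered 3, of which 1 rose (33.3%, beside 8.71% of all tested genes that rose). Solyc06g084320.1 rose to 4.82, 5.75 and 5.71 TPM from 0.65, 1.73 and 0.43 TPM (5.79-fold, change 1.78, SE 0.27, limma adjusted p 0.00274). It reached 1 TPM in all 3 mutant libraries and 1 wild type library, as did Solyc09g064820.1. Both genes thus met the expression rule through the mutant libraries, so the share of 33.3% depends in part on that rule. Solyc09g064820.1 held 2.88, 5 and 1.75 TPM against 0.44, 1.95 and 0 TPM, and the genotypes overlapped through wild type replicate 2. It did not pass (limma adjusted p 0.0769), but did without that library (change 1.74, adjusted p 0.0128). Solyc02g088595.1 did not pass, at 10.28, 6.83 and 8.94 TPM against 6.64, 5.81 and 5.68 TPM. The gene described as phytochrome A-associated, Solyc09g075080.3, held 10.66, 11.23 and 10 TPM against 12.44, 12.33 and 14.9 TPM and did not pass either (interval -0.65 to 0.08).

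Tubby-like genes join an F-box to a tubby domain that binds membrane phosphoinositides in animals. Of 11 genes 0 rose and 1 fell (9.09%, beside 10.5% of all tested genes that fell), and the median change was -0.10. The gene that fell, Solyc02g085130.3, was also the lowest by level, at 1.05, 0.85 and 0.93 TPM against 2.19, 3.76 and 1.97 TPM (limma adjusted p 0.0360). It reached 1 TPM in all 3 wild type libraries and 1 mutant library, and so met the expression rule through the wild type. It passed without wild type replicate 3 but not without any other single library (0.0471 to 0.104 over those 6 fits, 0.0245 to 0.104 over all alternatives). The most abundant, Solyc04g071750.3, held 97.3, 110.05 and 115.22 TPM against 91.79, 131.56 and 104.96 TPM (interval -0.40 to 0.38). Solyc10g046970.2 and Solyc09g074510.3, next by level, had intervals of -0.46 to 0.24 and -0.53 to 0.33.

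In the smaller types 3 genes passed. Of 6 genes named SKIP 1 fell (16.7%, beside 10.5% of all tested genes that fell). SKIP16 (Solyc06g053340.3) fell to 13.51, 12.69 and 14.49 TPM from 18.32, 19.79 and 20.1 TPM. The genotypes did not overlap, but the change was -0.49 (limma adjusted p 0.0482), and it did not pass without any single library (0.0587 to 0.160; 0.0263 to 0.160 over all alternatives). The most abundant gene named SKIP, the SKIP8-like Solyc08g082560.3, had an interval of -0.44 to 0.27. Among 13 genes with an F-box associated or interaction domain, 2 rose and 0 fell (15.4%, beside 19.2% of all tested genes). In the fits without any single mutant replicate or without wild type replicate 3, 1 rose. Solyc09g091220.2 held 1.72, 1.95 and 1.89 TPM against 0.34, 0.14 and 0.68 TPM, and Solyc03g115520.3 held 1.04, 1.13 and 1.24 TPM against 0.46, 0 and 0 TPM (limma adjusted p 0.0129 and 0.0281). The former passed in every alternative run that tested it, and the latter was lost in 5 of the 6 fits without a library and with the replicate block (adjusted p of up to 0.0875). Both were matched in part and met the expression rule only through the mutant libraries, so they had to be higher there. Of the 2 cyclin-like genes neither passed. The most abundant genes of the associated domain type, the low-quality models Solyc02g078890.1 and Solyc01g067010.3 and the full model Solyc09g091710.2, did not pass, at changes of 0.46, -0.03 and -0.37.

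Among the 175 other genes 14 rose and 10 fell (13.7%, beside 19.2% of all tested genes). Of these changes 8 rises and 1 fall were at least 1 on the log2 scale, 4.57% and 0.571% of the type beside 5.15% and 6.25% of all tested genes. Solyc02g080830.1, described as F-box plant-like, rose most, to 39.34, 38.55 and 26.7 TPM from 3.61, 8.41 and 3.17 TPM. The mean was 6.88-fold higher (change 2.64, SE 0.32, limma adjusted p 0.00122). Directly beside it in the table lie 2 more genes with the same description. Solyc02g080840.1 held 3.2, 5.7 and 3.58 TPM against 3.43, 5.67 and 2.3 TPM and did not pass. Solyc02g080850.1 held 8.1, 6.26 and 5.2 TPM against 2.12, 4.88 and 2.08 TPM and missed the threshold (limma adjusted p 0.0554). In all 3 genes wild type replicate 2 was the highest wild type library.

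A further 6 of the other genes rose by at least 1 on the log2 scale. Solyc05g051583.1 held 14.76, 17.72 and 19.01 TPM in slszp1 roots and 4.66, 5.3 and 3.43 TPM in the wild type (limma adjusted p 0.000705). Solyc01g097620.1, a low-quality model, held 14.39, 8.51 and 8.95 TPM against 1.72, 1.77 and 2.62 TPM (limma adjusted p 0.00129). Solyc02g092990.1 was the most abundant of them, at 124.04, 138.95 and 101.94 TPM against 51.26, 56.71 and 59 TPM (limma adjusted p 0.00207). None of these genes showed overlap between the genotypes, and Solyc02g092990.1 had a mutant mean 2.19-fold above the wild type. Solyc12g010900.1 held 9.96, 7.44 and 11.09 TPM against 2.15, 3.84 and 3.02 TPM, and Solyc10g083480.2 held 6.43, 5.97 and 7.94 TPM against 2.41, 2.97 and 0.96 TPM. Their mutant means were 3.16-fold and 3.21-fold higher (limma adjusted p 0.00431 and 0.0119). Solyc02g070480.3, matched in part, held 19.69, 24.57 and 21.39 TPM against 8.06, 15 and 5.7 TPM (limma adjusted p 0.0261), and passed without wild type replicate 2 but not without any other single library (up to 0.0853). A smaller rise with little spread was that of Solyc02g062800.2, at 29.21, 28.17 and 27.23 TPM against 15.81, 16.47 and 12.49 TPM (limma adjusted p 0.00557).

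The falls among the other genes were smaller apart from that of Solyc05g010367.1. This gene held 0, 0.83 and 0.09 TPM in slszp1 roots and 4.51, 4.5 and 10.27 TPM in the wild type (change -2.47, SE 0.36, limma adjusted p 0.00218). It met the expression rule only through the wild type libraries. It lies in a run of 6 F-box described genes on chromosome 5, of which 2 were expressed, and its nearest neighbours on both sides were listed at 0 throughout. Solyc12g099175.1 fell to 5.72, 6.6 and 6.14 TPM from 14.84, 10.14 and 11.9 TPM, and Solyc12g008330.2 to 5.42, 6.87 and 6.76 TPM from 11.21, 11.6 and 11.88 TPM (limma adjusted p 0.0129 and 0.0137). Both genes were matched in part, as was Solyc01g109780.3, and Solyc12g099175.1 lies next to another F-box gene. Solyc01g109780.3, Solyc11g065000.2 and Solyc04g017620.3 fell by 0.87, 0.77 and 0.57 on the log2 scale. These calls were lost in 2, 5 and 4 of the 6 fits without a library, with limma adjusted p of up to 0.0720, 0.0960 and 0.123, and that of Solyc01g109780.3 also with the replicate number as a block. The call of Solyc12g099175.1 was lost without wild type replicate 1 (adjusted p 0.0583) and that of Solyc12g008330.2 without mutant replicate 1 (adjusted p 0.0583). Of 4 genes with WD repeats, another repeat that binds targets, 1 fell: Solyc06g008980.3, at 0.48, 0.28 and 0.81 TPM against 1.42, 2.34 and 1.59 TPM, which also met the rule only through the wild type (limma adjusted p 0.0354). It did not pass in 5 of the 6 fits without a library or with the replicate block (adjusted p of up to 0.119). The most abundant of the other genes, Solyc05g055870.3, did not pass, at 232.79, 250.32 and 239.5 TPM against 310.22, 193.49 and 339.88 TPM. Without single libraries 8 to 18 of the other genes rose and 4 to 9 fell, with 8 rises and 5 falls without wild type replicate 1, 9 rises and 6 falls without mutant replicate 2, 4 falls without mutant replicate 1 and 6 falls without wild type replicate 3.

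**Figure D4:**
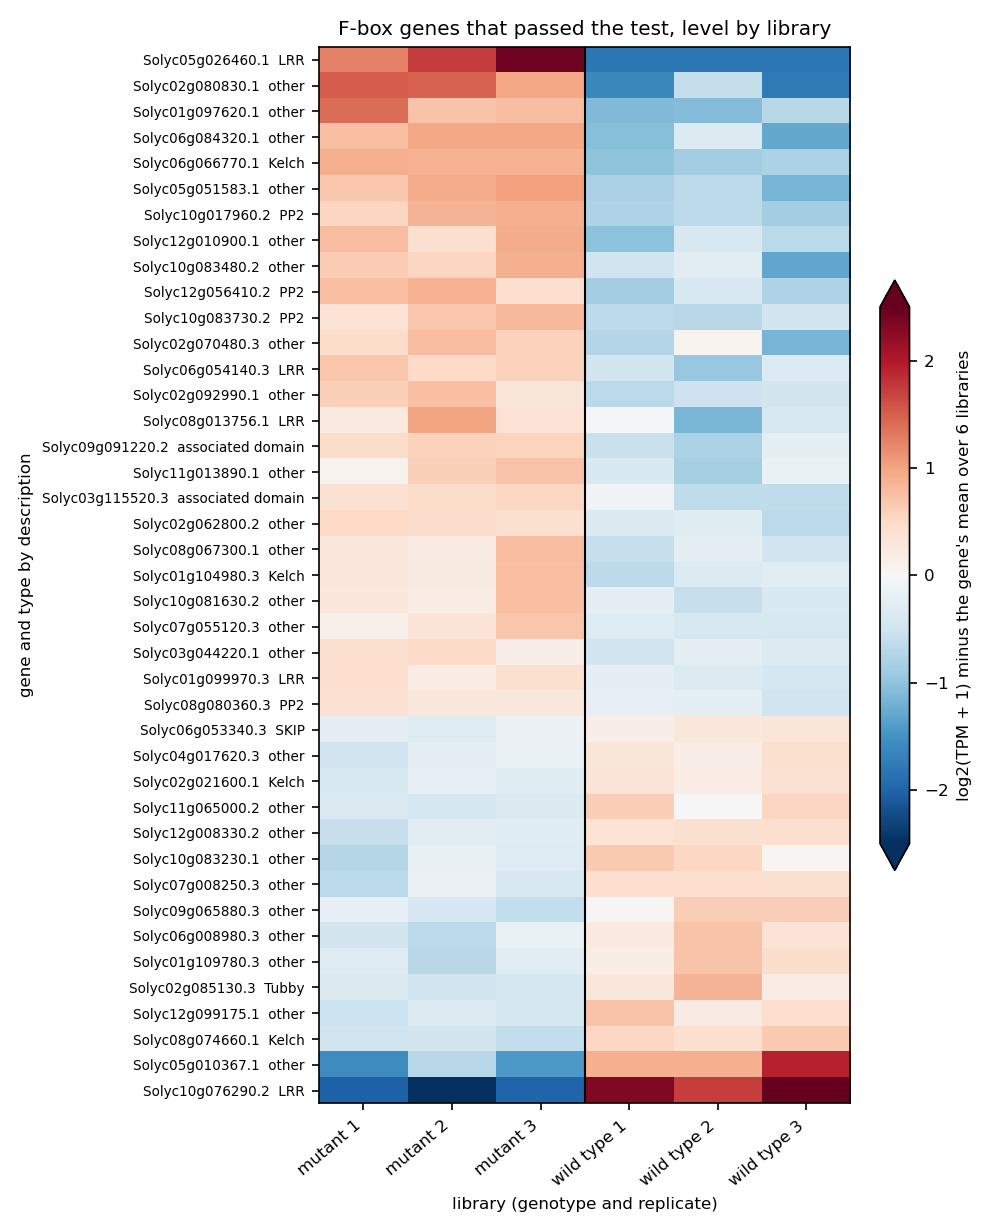
Rows are the 41 F-box genes that passed the test, sorted by change and marked with their type, and columns are the 6 libraries. Colour is log2(TPM + 1) minus the gene's mean over the 6 libraries; the 26 genes above rose and the 15 below fell, and in all 41 the genotypes do not overlap.

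Many of these genes stand next to other F-box genes. In the order of the table, 220 of the 660 F-box described genes lie in 77 runs of directly neighbouring F-box genes, the longest holding 9. Of the 278 expressed genes 74 lie in such runs, and 7 of those 74 (9.46%, beside 14.7% of all members) were among the 41 that passed. In 15 of the 77 runs every gene was expressed, in 32 none was, and 30 held both kinds. The run with most expressed genes, from Solyc08g013756.1 to Solyc08g013820.3, held 4 of 8, of which 1 rose. By the chromosome number in the identifiers, chromosome 1 carried the most members with 38, and chromosomes 5 and 12 the fewest with 13 each, apart from 1 unplaced gene. Each of the 12 chromosomes held at least 1 gene that passed. Sequences of near-identical neighbours can share reads, and how the authors' tools divided such reads is not stated in the labels.

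Well-known F-box proteins whose descriptions use other words lie outside the 278 genes. This list was chosen after the descriptions and values had been seen, and 11 of its 26 genes were expressed. Of these 1 rose and 0 fell (9.09%, beside 19.2% of all tested genes). Solyc01g005300.3, a flavin-binding kelch F box protein of the family that times light responses, rose to 72.58, 88.93 and 102.03 TPM from 42.21, 39.43 and 47.21 TPM (change 1.01, SE 0.16, limma adjusted p 0.00398). COI1, the jasmonate receptor (Solyc05g052620.3), held 69.89, 61.62 and 74.31 TPM against 59.56, 62.1 and 63.95 TPM and did not pass (interval -0.17 to 0.45). Genes described as TIR1, the auxin receptor, did not pass either. The most abundant, Solyc02g079190.3, held 76.05, 63.4 and 88.33 TPM against 102.58, 78.97 and 112.47 TPM. Solyc09g074520.3 held 26.96, 23.5 and 31.34 TPM against 38.43, 33.15 and 38.66 TPM, without overlap but with a limma adjusted p of 0.0977.

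Of the machinery that F-box proteins work with, 3 lists were counted. Of 20 expressed genes for SKP1, cullins and RING-box proteins 0 rose and 1 fell, a share of 5.0% beside 19.2% of all tested genes. The gene that fell was Solyc11g012320.2, described as SKP1-like 12 and matched in part, at 285.59, 209.75 and 186.31 TPM against 989.07, 688.67 and 664.37 TPM (change -1.78, SE 0.23, limma adjusted p 0.00122). It was so abundant that the summed level of the 20 genes was 1038 to 1134 TPM in slszp1 roots and 1535 to 1939 TPM in the wild type. Of 21 genes that regulate cullins, such as COP9 signalosome subunits and enzymes of the ubiquitin-like protein NEDD8, 0 rose and 1 fell (4.76%). It was Solyc07g005060.3, a cullin neddylation gene, at 16.23, 17.64 and 16.56 TPM against 23.37, 32.58 and 25.15 TPM. It passed without wild type replicate 1 (0 or 1 fell over the 6 fits without single libraries). Among 59 genes of ubiquitin-activating and ubiquitin-conjugating enzymes 6 rose and 8 fell (23.7%, above the 19.2% of all tested genes), and without single libraries 2 to 9 rose and 1 to 6 fell. The conjugating enzyme gene Solyc04g007970.3 rose most clearly, to 50.95, 65.69 and 54.09 TPM from 13.71, 22.65 and 18.22 TPM.

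Lists of known targets of F-box receptors were short. Of 13 Aux/IAA repressor genes 1 rose and 3 fell (30.8%, beside 19.2% of all tested genes), led by IAA7 (Solyc06g053830.3) at 5.23, 4.37 and 4.57 TPM against 10.6, 12.72 and 9.98 TPM. Of 11 genes for JAZ repressors, the targets of COI1, 2 rose and 1 fell (27.3%). The fall was of JAZ7b (Solyc03g118540.3), at 13.64, 11.02 and 12.39 TPM against 27.69, 33.88 and 28.56 TPM. Without single libraries 0 or 1 Aux/IAA genes rose and 1 or 2 fell, and 0 to 4 JAZ genes rose. Neither of 2 genes described as GAI or GAI-like, DELLA targets in gibberellin signalling, passed. Of 5 genes for EIN3 and EIL factors, which EBF proteins bind, 1 fell (20.0%, beside 10.5% of all tested genes that fell). This was EIL1 (Solyc06g073720.2), at 20.6, 18.03 and 24.14 TPM against 29.24, 33.87 and 32.6 TPM (change -0.59, SE 0.16, limma adjusted p 0.0314). It passed without mutant replicate 3 and not without the other libraries. The other 4 did not pass.

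Other ubiquitin ligase classes gave counts that differ from those of the F-box genes in size. Of 328 expressed RING or U-box genes 55 rose and 27 fell, 25% in all beside 19.2% of all tested genes. Without single libraries 39 to 53 rose and 16 to 33 fell, with 16 falls without wild type replicate 1. Of 38 BTB/POZ genes, whose proteins serve as adaptors of another cullin, 5 rose and 4 fell, 23.7% in all, and 3 rose and 2 fell without mutant replicate 2 or wild type replicate 1. The F-box share was 14.7%, and no test of the difference between classes was made. Of 16 expressed Kelch genes without the word F-box, the flavin-binding gene above included, 4 rose and 1 fell (31.2%, beside 19.2% of all tested genes). Without single libraries 1 to 4 of them rose.

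Marker lists of other cells were counted in the same libraries. The summed level of 41 expressed photosystem, chlorophyll-binding and Rubisco small chain genes, a list for shoot cells, was 748 to 801 TPM in slszp1 roots and 599 to 632 TPM in the wild type. Of these 41 genes 4 rose and 3 fell (17.1%, beside 19.2% of all tested genes), 1 falling without mutant replicate 2 or wild type replicate 3, and of the 229 listed, 121 were at 0 in all libraries. For dividing cells, 1 of 47 expressed core histone genes rose and 6 fell (14.9%), with sums of 5431 to 6431 TPM in slszp1 roots and 6703 to 8475 TPM in the wild type. Of 13 genes for cyclins A and B 0 rose and 4 fell (30.8%, beside 10.5% of all tested genes that fell). In 8 cyclin genes (61.5%) and 13 histone genes (27.7%) every mutant library lay below every wild type library. This held for 20.2% of all tested genes, and the reverse held in 0 cyclin genes and 1 histone gene. Median changes were -0.67 for cyclins and -0.45 for histones. The summed cyclin level was 79.05 to 143.9 TPM in slszp1 roots and 58.29 to 108 TPM in the wild type, an overlap. This sum includes a cyclin gene that did not pass at a change of 4.09. Without single libraries 1 to 10 histone genes and 0 to 3 cyclin genes fell. The 2 root cap genes summed to 1.69 to 6.36 TPM against 3.17 to 5.34 TPM and did not pass. The part of these differences in the changes of F-box genes was not tested.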

How the data were processed

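All 6 value columns of the deposited table were used. The values the authors deposited were read as TPM (transcript levels normalized for length and scaled per library before deposit), an inference from their 2 decimals and column sums of 940694 to 974316, since the header names no unit. Per the submitters' processing notes the tools were TopHat2, HISAT2, StringTie and Cufflinks; neither versions nor roles are stated there. The sources used here name no genome build. Absolute sequencing depth cannot be had from TPM. Gene names come from the table; 0 rows of the RefSeq gene table matched its identifiers, and no sequence is shown. An exact 0 in such a table can be a failed estimate. Nothing in the labels beyond the words biological replicate tells how plants were divided among libraries.

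The 17702 genes that reached 1 TPM in 3 or more libraries were tested on log2(TPM + 1) with limma 3.58.1 (trend and robust options, statmod 1.5.0) in R 4.3.3, mutant against wild type without a replicate block, with Benjamini-Hochberg adjustment over all of them. The fit was tested on simulated data. The members, types and lists were chosen with earlier results of these data known. Types were set by the first matching word in the description; 1 gene, described as phytochrome A-associated, was moved from the associated domain type to the others and counted as an EID1 name after its description was seen. The genes named are the 12 with the smallest p in each direction without overlap, all Kelch and LRR genes that passed, the 3 most abundant of each type, known regulators, and up to 3 per list (4 among F-box proteins under other words, a list chosen after values were seen). Others named (neighbouring genes, Solyc10g083480.2, Solyc02g070480.3, Solyc08g080360.3, Solyc11g006735.1 and genes of the PP2, SKIP25, associated domain and LRR types below these ranks) were chosen after their values were seen. Of the 278 genes, 29 models are marked low quality and a further 50 matched in part. The alternatives are given in the closing section.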

Additional observations from a re-analysis of the deposited data

How the results depend on the processing

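The 26 rises and 15 falls among the F-box genes were recomputed under every alternative. Without a filter on low values 14 rose and 6 fell, over 35768 genes tested. This was 7.19% of the 278 expressed members, beside 5.21% of all 35768 genes, expressed or not. These shares rest on unlike sets, so they do not place the members above all genes. With a mean of at least 5 TPM required, 17 rose and 11 fell, over 177 members tested. This was 15.8%, beside 20.2% of all 12907 genes tested there. A change of at least 1 on the log2 scale was reached by 16 rises and 3 falls. Without single libraries 17 to 28 rose and 6 to 14 fell. This was 8.27 to 15.1% of the members, below the share of all tested genes in each of these fits. With the replicate number as a block (replicate block) 20 rose and 9 fell, 28 of them also among the 41. This was 10.4% of the members, beside 15.7% of all tested genes. The labels do not say whether equal numbers pair the samples. Deviations from the genotype mean correlated at -0.048, -0.074 and 0.108 between libraries of equal number, and at -0.083 to 0.141 between the rest. With 3 libraries per genotype these values cannot show whether equal numbers share a batch. The causes of these shifts were not tested, beyond fewer genes or libraries where the alternative itself removes them. Under a pseudocount of 0.1, quantile normalization, median centring, no trend or robust option, and no low-quality or partly matched models, 21 to 30 rose and 13 to 17 fell. The shares were 14.4 to 17.1% of the members tested, beside 18.4 to 20.6% of all genes tested.

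Of the 41 genes that passed, 18 passed under every alternative that tested them and 23 did not under at least 1; 0 of the 41 changed sign. In 7 named genes that had not passed, the sign turned. Solyc04g071750.3 was at 0.006624 under quantile normalization, and from -0.1306 to 0.1267 without single libraries, above 0 without mutant replicate 1 (0.05663) or wild type replicate 2. Without single libraries Solyc05g053620.3 turned to -0.08135 (mutant replicate 2) and -0.4389 (wild type replicate 2); its highest value was 0.2806. The range was -0.1475 to 0.1092 for Solyc01g067010.3 (0.03538 without mutant replicate 3), -0.1647 to 0.1192 for Solyc10g080610.1 (-0.1064 when wild type replicate 1 was left out), -0.1543 to 0.01624 for Solyc08g082560.3, -0.2984 to 0.002867 for Solyc09g074510.3 and -0.9224 to 0.2819 for Solyc11g006740.2. Depth is unknown, so values near 1 TPM are uncertain.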
